A study of Mus musculus with 24 samples.

Results

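Cultures of a mouse mammary carcinoma cell line were compared with primary tumors grown from the same line, by the levels of mouse microRNAs (miRNAs). The samples were chosen by their labels, and 16 of the 24 samples of the series belong to the comparison. They are 4 cultures of JygMC(A)-GFP/Luc cells, 2 grown as a monolayer and 2 as 3D spheres, and 12 laser-captured areas of primary tumors, of which 5 are carcinoma and 7 EMT-like areas (areas with the look of an epithelial-mesenchymal transition). A tumor area holds vessels, blood and connective tissue of the host beside tumor cells, whereas a culture of a cell line does not, and the comparison addresses which miRNAs of the tumor areas are also found in the tumor cells alone.

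JygMC(A) cells derive from a wild mouse of China with a mammary tumor not induced by treatment, and they carry a mouse mammary tumor virus insertion in Notch4/Int3. The cells used here had been given a lentiviral fusion of firefly luciferase and eGFP, enriched with Geneticin and sorted by flow cytometry. The 4 cultures are of this 1 line, kept either attached to plates or as serially passaged spheres on ultra-low adherent plates, and were labelled as biological replicates without a further drug or gene change. For the tumors, cells in Matrigel were injected on both sides into the fourth mammary fat pad of female Balb/C athymic nude mice aged 6 to 9 weeks, and the tumors were removed at 20 to 30 days. Nude mice lack a working thymus and so most T cells, while their vessels, fibroblasts, red cells and myeloid cells are present. The 12 areas came from 8 animals or pools, of which 4 gave both kinds of area. Of these 4, 1 is a pool, since 1 carcinoma and 1 EMT-like sample carry a label that names 3 animals, which was counted as 1. Tumor areas were cut out under the laser and cultures were lysed directly, so that capture and sample type cannot be told apart.

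MiRNAs are short RNAs that pair with messenger RNAs through their seed, the bases near the 5′ end, and lower the messengers' translation or stability. Many are restricted to a cell lineage, such as miR-126 in endothelium, miR-451 in red cells, miR-223 in myeloid cells and the miR-200 family in epithelium. Others, such as the let-7 family, are made in most differentiated cells. Several miRNAs are often cut from 1 primary transcript, so that neighbours in the genome are transcribed together, while their mature levels can still differ through processing and turnover.

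The assay counted molecular barcodes of probes for 566 mouse miRNAs in each lane of an nCounter instrument. Each deposited value is a count less the mean of the lane's 6 negative control probes, so that values below 0 occur. They had not been scaled between lanes. A miRNA was taken as above the detection limit of a lane where its value exceeded 2 SD of those negative controls, a limit of 11.1 to 21.4 in the cultures and of 8.76 to 20.6 in the tumor areas. The sum of mouse miRNA values was 46507 and 26420 in monolayer replicates 1 and 2, 38689 and 33419 in sphere replicates 1 and 2, and between 111602 and 184501 in the tumor areas (median 143511). Every culture lane thus held less signal than every tumor lane. The positive control of the highest concentration gave 7950 to 9328 counts in the cultures and 8458 to 10819 in the tumor areas, ranges that overlap. Between 104 and 126 probes were above the limit in a culture and between 150 and 258 in a tumor area, or 18.4% to 22.3% and 26.5% to 45.6% of mouse probes. Probes for viral miRNAs passed the same limit at 0% to 12.1% in the cultures and at 0% to 21.2% in the tumor areas, so a value just above it may be background. The amount of RNA loaded is not given in the sources used here, and its part in the results was not tested.

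Among the 4 cultures, monolayer replicate 1 stood apart. Over 182 probes above the limit in at least 8 of the 16 samples, its log2 values had a correlation of 0.72 with monolayer replicate 2 and of 0.75 and 0.73 with the sphere cultures, while the sphere cultures had 0.95 with each other and monolayer replicate 2 had 0.85 with both. These correlations run across probes of single lanes, which share depth and probe efficiency and are not independent replicates. Tumor areas had 0.80 to 0.98 with each other (median 0.92, 66 pairs), and a culture with a tumor area had 0.40 to 0.70 (median 0.54, 48 pairs). Since most of the 16 samples are tumor areas, a probe could enter this set through tumor areas alone. The values between a culture and a tumor area may thus partly reflect the choice of probes, which was not tested. In what follows, values of cultures are given in the order monolayer 1, monolayer 2, spheres 1, spheres 2, and several results are given also without 1 of the monolayer replicates.

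With values scaled between lanes by the trimmed mean of M-values (TMM) and compared on log2(value + 1) with limma, 111 of 550 mouse probes were called lower in the cultures (20.2%) and 25 higher (4.55%). The fold change is the mean of the monolayer and sphere means minus the mean of the 8 tumor animals, and a call needed an adjusted p under 0.05 and values above the limit in at least 2 of the 4 cultures or 6 of the 12 tumor areas, whichever side was higher. Of the lower calls, 68 did not overlap between the 4 cultures and the 12 tumor samples, and 49 were under the limit in all 4 cultures. Neither trait is particular to calls. Probes such as miR-7a and miR-664 did not overlap and were not called, and 217 of all 550 probes were under the limit in all 16 samples. Of the higher calls, 7 did not overlap, and 1, miR-2145, was under the limit in all tumor samples. In all, 26 miRNAs were above the limit in every tumor area and in no culture, and 0 the other way round. On the scaled values the limit was 26.7 to 36.2 in the cultures and 9.88 to 28.6 in the tumor areas. A given scaled level could thus pass in a tumor area and fail in a culture. The part of this in the counts against the limit was not tested. By the adjusted p alone, 37 probes were higher and 128 lower, and 204 had an unadjusted p under 0.05. At least 6 of the 12 tumor areas were above the limit for 201 probes, at least 2 of the 4 cultures for 126, and both for 109. Of the 201, 111 were called lower (55.2%), the share to set beside the counts of lower calls in the lists that follow.

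How many miRNAs counted as higher depended on the scaling. TMM multiplied culture values by 1.69 to 2.41 and tumor values by 0.828 to 1.45. The share of higher calls among all calls was 18.4% with TMM (25 higher, 111 lower). It was 2.19% for unscaled values (3 and 134), 46.9% with scaling by the sum of mouse values (60 and 68), 63.2% with the 100 most abundant miRNAs as the basis (86 and 50), and 42.6% with TMM over the 56 probes above the limit in all 24 lanes (55 and 74), a setting chosen after seeing the data. With scaling by the 4 mRNA probes it was 10.7% (12 and 100), and with TMM set against each culture lane it was 19.4% to 23%. The median log2 fold change over all 550 probes was -0.11 with TMM, and it moved by -0.23 for unscaled values and by 0.11 with the sum, with the 100 most abundant miRNAs and with the 56 probes. Over the 10 scalings, 50 of the 111 lower calls were called lower each time, and 75 of the 111 kept their sign. Of the 25 higher calls, 23 kept their sign and 3 were called each time, miR-187, miR-804 and miR-2146.

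**Figure D1:**
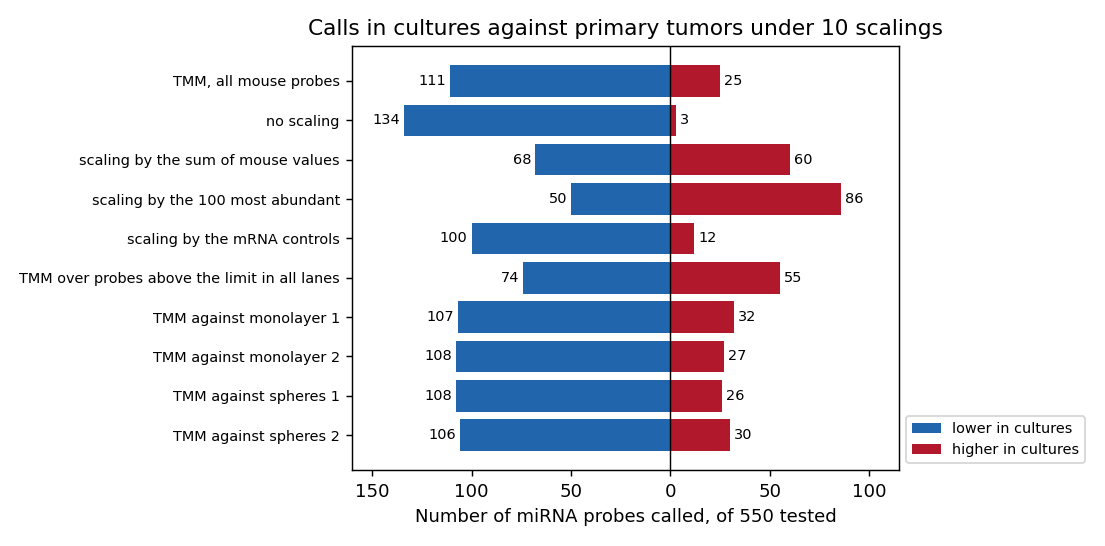
Number of mouse miRNA probes, of 550 tested, called lower (blue, to the left) or higher (red, to the right) in the 4 cultures than in the primary tumors, under each of 10 ways to scale the lanes. Lower calls run from 50 to 134 and higher calls from 3 to 86.

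**Figure D2:**
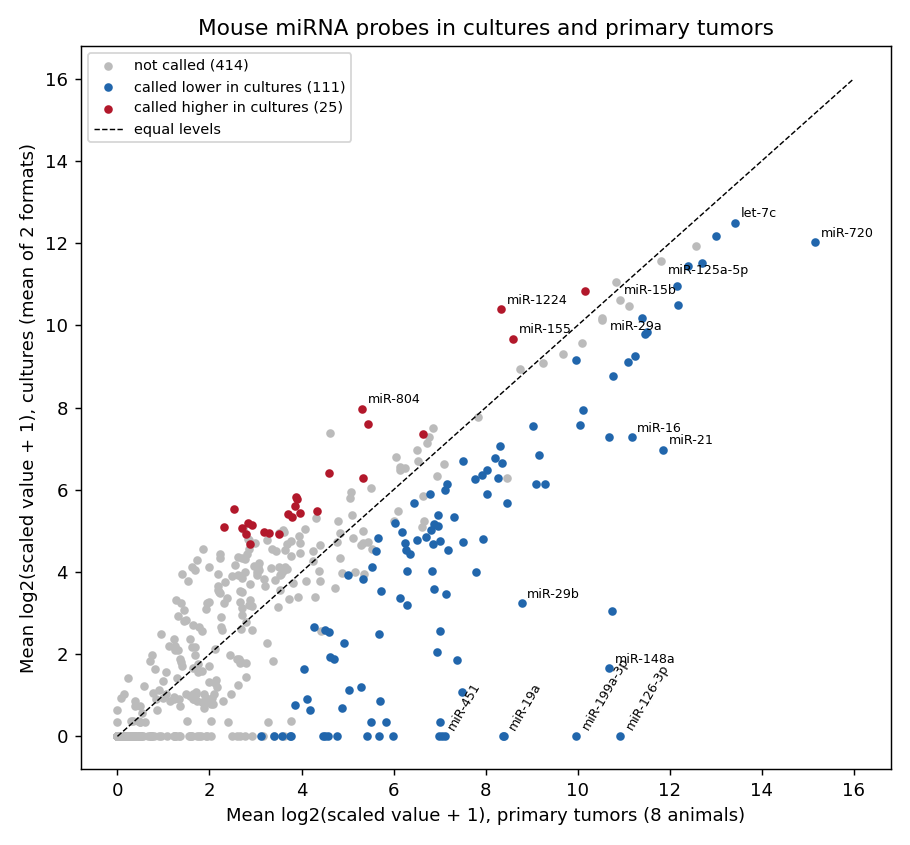
Each point is 1 mouse miRNA probe, with its mean log2(scaled value + 1) over 8 tumor animals on the x axis and over the cultures (mean of the monolayer and sphere means) on the y axis. Probes called lower (111) lie below the dashed line of equal levels, many of them at 0 in the cultures, and the 25 called higher lie above it.

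Among miRNAs of host lineages, miR-126, miR-451, miR-199a and miR-223 were at background in the cultures, while miR-145 was measured in all 4. The endothelial list holds both strands of miR-126, which is cut from an intron of Egfl7 and maintains vessel integrity. Deposited miR-126-3p was -9, -7, -10 and -6 in the cultures and ran from 859 to 3259 in the tumor areas (median 1960). Every culture was under its detection limit and every tumor area far above, and the same held for miR-126-5p (44 to 243 in tumor areas). The level of miR-126-3p was at least 58.3-fold lower in the cultures (adjusted p = 1.58e-15), and that of miR-126-5p at least 4.18-fold lower (adjusted p = 3.19e-12). Both of 2 members were thus called lower, with a median log2 fold change of -9.02, or -3.96 with members under the limit set to their bound, beside -0.11 over all probes. The summed scaled level of the list was 0 in each culture and between 1020.3 and 3066.9 in the tumor areas. Such a bound compares the mean of the bright group with the detection limits of the dim group after scaling, and a dim miRNA may support none. An adjusted p printed beside a bound, here and below, is that of the fitted fold change and does not test the bound. Where culture values are floored at 0 their spread is removed, so such an adjusted p depends in part on the floor. Bounds in the text are for TMM. Those of lower calls shrink where culture values are multiplied more, for miR-126-3p to 26.4-fold with the sum and 15.9-fold with the 100 most abundant miRNAs. That of the higher call miR-2145 grows instead. Of 50 calls with the lower side under the limit throughout, 29 had a bound with TMM, 41 with no scaling, 19 with the sum and 15 with the 100 most abundant miRNAs. List medians without mention of a bound are of fitted values, whose size for members at background depends on the floor at 0. In bulk samples such as these, fewer cells of a type and less RNA per cell cannot be told apart.

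Among 3 erythroid miRNAs, 2 were called lower and 0 higher (median fitted log2 fold change -2.05, or -1.42 without sphere replicate 1 and -2.69 without sphere replicate 2). All 3 were under the limit in every culture, and only miR-451 was bright enough in the tumors for a bound. Deposited miR-451, which is matured by Argonaute 2 without Dicer and drives red cell maturation, was -7, 0, -9 and -9 in the cultures against 62 to 262 in the tumor areas (median 127.5). No culture reached the limit and all 12 tumor areas did, at least 3.97-fold lower in the cultures (adjusted p = 2.58e-14), a bound that was 1.8 with the sum and 1.08 with the 100 most abundant miRNAs. Values of miR-486, another miRNA of red cells, were 9, 6, 0 and 2 against 5 to 41, so that the groups overlapped (log2 fold change -2.05, standard error 0.38, adjusted p = 2.84e-04). Its call was lost in 1 of the 10 scalings. The neighbour of miR-451, miR-144, was above the limit in 1 tumor area and no culture and was not called (adjusted p = 0.157). The summed scaled level of the list was 15.2, 11.4, 0 and 4.81 in the cultures and 96.9 to 304.9 in the tumor areas.

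The fibroblast list, miR-199a and miR-214 of the Dnm3os transcript of mesenchymal cells, had 2 of 3 members called lower and 0 higher, with a median log2 fold change of -8.40 (-3.35 with bounds). Deposited miR-199a-3p was -3, -3, -1 and 0 in the cultures and 536 to 2024 in the tumor areas (median 1013). For miR-199a-5p the cultures had -6, -2, -7 and -9 and the tumor areas 191 to 777 (median 322). Neither strand reached the limit in a culture, and both did in every tumor area. They were at least 30.1-fold (adjusted p = 1.59e-14) and at least 10.2-fold lower (adjusted p = 2.18e-14) in the cultures. By contrast miR-214 was dim on both sides, at 3, 10, 15 and 8 against 0 to 43, above the limit in 10 of 12 tumor areas and in 0 cultures, and was not called (adjusted p = 0.842). The summed scaled level of the list was 5.08, 19, 26.9 and 19.3 in the cultures and 937.7 to 2709.5 in the tumor areas.

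Of the smooth muscle and pericyte pair, miR-143 and miR-145 share a transcript that is needed for the contractile state of vessel walls, and both were called lower (median log2 fold change -2.84). The deposited values of miR-143 were 64, -7, 1 and -1 in the cultures and 62 to 221 in the tumor areas (median 124.5). Monolayer replicate 1 alone was above the limit and reached the range of the tumors, and the other cultures were at background (log2 fold change -4.88, standard error 0.75, adjusted p = 4.12e-05). The neighbouring miR-145 was measured in every culture, at 819, 198, 244 and 199 against 617 to 1520 (log2 fold change -0.79, standard error 0.28, adjusted p = 0.0384). That call held in 2 of the 10 scalings and miR-145 was called higher in 1, with log2 fold changes from -1.70 to 1.11, so its direction depended on the scaling. The median of the pair was -3.92 without monolayer replicate 1 and -1.76 without monolayer replicate 2. Its summed scaled level was 1495.8, 376.2, 440 and 478.9 in the cultures and 789.8 to 1594.8 in the tumor areas.

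Of 8 miRNAs of immune cells, 4 were called lower and 2 higher in the cultures (median log2 fold change -1.93, or -1.32 with bounds). That is 4 of the 7 above the limit in at least 6 of the 12 tumor areas, a share near the 55.2% of all such probes. In the myeloid lineage, miR-223 was 1, -9, -11 and -12 in the cultures and 67 to 270 in the tumor areas (median 123.5), at least 3.87-fold lower (adjusted p = 2.69e-12), or 1.75 with the sum and 1.05 with the 100 most abundant miRNAs. For miR-142-3p, made in most blood cells, the deposited values were 5, 14, 5 and 2 against 75 to 267 (median 132), at least 4.22-fold lower (adjusted p = 4.10e-07). Both were under the limit in each culture, as was miR-342-3p, from an intron of Evl, which was at least 3.8-fold lower (adjusted p = 3.14e-12). The other strand of the miR-142 hairpin went the other way, with deposited values of 45, 37, 51 and 30 in the cultures and 27 to 56 in the tumor areas, ranges that overlap. After scaling miR-142-5p was called higher (log2 fold change 0.95, standard error 0.30, adjusted p = 0.02), a call made in 8 of the 10 scalings.

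Other immune miRNAs were detected in cultures as well. Deposited miR-146a, a brake on NF-κB signalling, was 60, 31, 36 and 26 in the cultures and 226 to 1054 in the tumor areas (median 639.5). Every culture was above its limit and below every tumor area, and miR-146a fell by 3.15 on the log2 scale (standard error 0.32, adjusted p = 3.19e-07). Deposited miR-155, from the B-cell integration cluster gene and also studied as an oncogenic miRNA of breast tumors, was 428, 413, 442 and 416 against 273 to 435 (median 378). These deposited ranges overlap, and the scaled ones do not (725.1 to 1001.1 against 308.5 to 497.8). The scaled level rose by 1.08 on the log2 scale (standard error 0.24, adjusted p = 0.00149). With no scaling the value was 0.18 and the call was lost, as with scaling by the mRNA probes (0.87). The probe name states that 2.2% of the signal of a positive control adds to this probe, which is 174.9 to 205.2 of the counts in the cultures and 186.1 to 238 in the tumor areas, and with that share subtracted the log2 fold change was 1.35 (adjusted p = 0.00215), a setting chosen after seeing the data. The lymphocyte miRNA miR-150, at 13, 17, 17 and 8 against 15 to 83, was above the limit in 1 culture and 12 tumor areas and was not called (adjusted p = 0.129). Nor was miR-342-5p, which was under the limit in all 16 samples. The summed scaled level of the list was 935.1 to 1159.9 in the cultures and 905.1 to 2480.3 in the tumor areas, with miR-155 the most abundant member in the cultures and miR-146a in the tumor areas.

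**Figure D3:**
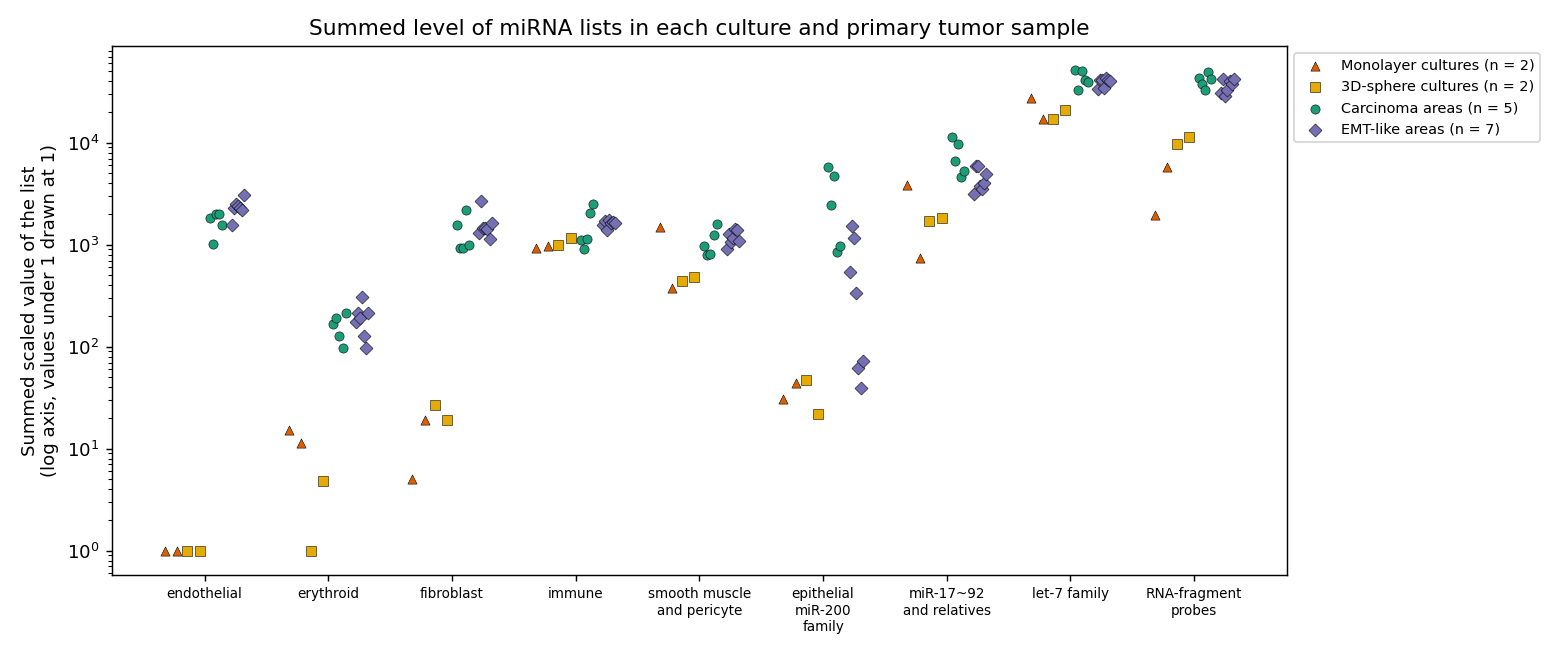
Summed scaled value of 9 miRNA lists in each of 4 cultures and 12 primary tumor areas, on a log axis with values under 1 drawn at 1. The endothelial list is at 0 in all cultures and between 1020.3 and 3066.9 in tumor areas, while the let-7 family lies between 17126.3 and 27531.6 in cultures and between 32822.6 and 51717.2 in tumor areas with the TMM scaling shown.

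Mature sequences are shown for 6 of the vessel, blood and mesenchymal miRNAs that were at background in all 4 cultures, with the seed (bases 2 to 8) in capitals. They were taken from RefSeq (GRCm38.p6), in which 344 of the 550 tested probes had a match, 187 by the name itself and the others by the strand assigned to an older name. No pair among these 6 shares a seed, and miR-199a-3p and miR-199a-5p are strands of 1 hairpin with 2 loci, on chromosomes 1 and 9.
miR-126-3p: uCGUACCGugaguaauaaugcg
miR-451: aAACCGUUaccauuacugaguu
miR-199a-3p: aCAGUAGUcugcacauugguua
miR-199a-5p: cCCAGUGUucagacuaccuguuc
miR-223: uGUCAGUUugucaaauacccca
miR-142-3p: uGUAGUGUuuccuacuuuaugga

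The label of the cultures as cells of a carcinoma was checked against epithelial miRNAs. The miR-200 family, which represses Zeb1 and Zeb2 and keeps the epithelial state, had 5 of 5 members called lower and 0 higher. Its median fitted log2 fold change was -4.43, or -2.44 with members that had a bound set to it. Each of the 5 was under the limit in every culture. All 5 were above it in at least 6 of the 12 tumor areas, where 55.2% of all probes were called lower. The levels of miR-141 and miR-200a in the tumors were too low for a bound. Without monolayer replicate 1 the fitted median was -3.52, and without monolayer replicate 2 it was -4.88. Deposited miR-200b was 18, 14, 17 and 7 in the cultures and 21 to 1561 in the tumor areas (median 203.5). For miR-200c the cultures had -1, 6, 9 and 2, and the tumor areas 7 to 1324 (median 235). The range among tumor areas was wide, and the lowest tumor areas were near the level of the cultures. For miR-141, 4 of the 12 tumor areas were under the limit, as were all cultures. Bounds were at least 5.43-fold for miR-200b (adjusted p = 0.0244) and at least 3.85-fold for miR-200c (adjusted p = 0.00449). The call of miR-200b was lost in 4 of the 10 scalings and without any 1 of the 4 cultures, and that of miR-200c in 1 scaling. Calls of miR-200a, miR-141 and miR-429 were kept in all 10, but their culture values sit at or near 0, which a multiplier cannot move.

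The family's summed scaled level was 30.5, 43.7, 46.7 and 21.7 in the cultures, and 39.8 to 5783.4 in the tumor areas (median 914.8). The 3 lowest tumor values, 39.8, 61.5 and 72.2, were all of EMT-like areas, from animals that gave no carcinoma area, and the lowest carcinoma area had 855.3. The kinds of area overlapped. EMT-like replicates 2 and 3 had 1516.4 and 1155.7, above carcinoma replicates 4 (855.3) and 5 (974.4). Against carcinoma areas alone the median fitted log2 fold change of the family was -6.79, and against EMT-like areas alone -3.51, values that depend on the floor since all cultures were under the limit. Whether these medians differ was not tested. So all cultures were under the limit for this family. The basal miRNAs miR-203 and miR-205 had 0 of 2 called (median log2 fold change -0.81, standard errors 0.82 and 0.57). They were above the limit in only 2 and 1 of the 4 cultures, so the lack of a call does not show that their level was kept. By immunofluorescence, the paper describes cultured JygMC(A) cells as basal-like and mesenchymal. Deposited miR-205, which is high in basal mammary cells, was 22, 12, 12 and 9 in the cultures and 17 to 103 in the tumor areas (adjusted p = 0.495). For miR-203, a brake on p63 in stratified epithelium, the values were 22, 20, 10 and 4 against 8 to 291 (adjusted p = 0.431). The sign of this pair turned to positive medians with scaling by the sum (0.32), by the 100 most abundant miRNAs (1.05) and by the 56 probes (0.16).

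The 5 family members fall into 2 seed groups that differ at 1 base, and they are shown since both groups were under the limit in the cultures. The gene of miR-429 lies with those of miR-200b and miR-200a on chromosome 4, and miR-141 is beside miR-200c on chromosome 6.
miR-200a: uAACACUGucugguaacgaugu
miR-141: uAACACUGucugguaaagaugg
miR-200b: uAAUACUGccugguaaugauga
miR-200c: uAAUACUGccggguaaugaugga
miR-429: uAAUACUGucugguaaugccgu

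The miR-183 cluster, expressed in sensory organs and raised in many carcinomas, had 2 of 3 members called lower and 0 higher (median log2 fold change -2.64). All 3 were above the limit in at least 6 of the 12 tumor areas, and 55.2% of all such probes were called lower. Deposited miR-183 was 140, 12, 64 and 61 in the cultures and 62 to 276 in the tumor areas and was not called (adjusted p = 0.533). Its neighbour miR-96, 182 bases away on chromosome 6, was 66, 0, 36 and 16 against 53 to 302 (log2 fold change -2.64, standard error 0.79, adjusted p = 0.0153), and it was called lower in 7 of the 10 scalings. The last of the cluster, miR-182, was under the limit in every culture (adjusted p = 4.63e-04). The cluster's median was -4.12 without monolayer replicate 1 and -0.94 without monolayer replicate 2, with both below 0.

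With TMM, most members of families made in most cell types, of host and tumor alike, were also called lower. The direction of some of these families, such as let-7, depended on the scaling. Over the 5 lists of vessels, blood, fibroblasts and smooth muscle, 12 of 18 tested members were called lower (66.7%) and 2 higher, miR-142-5p and miR-155. Over 6 broadly expressed families (miR-17~92 and relatives, miR-15/16, let-7, miR-30, miR-29 and miR-23/24/27), 30 of 40 were called lower (75.0%) and 0 higher, beside 20.2% of all probes. Counted only among probes above the limit in at least 6 of the 12 tumor areas, which a lower call requires, the lower calls were 12 of 16 (75.0%), 30 of 34 (88.2%) and 111 of all 201 (55.2%). In all 10 scalings, 10 of the 18 and 10 of the 40 were called lower, beside 50 of all 550 probes. Most of the first 10 have culture values at 0, which no multiplier moves, so that their calls say that the cultures were at background. A difference between these groups was not tested. Median log2 fold changes were -3.41 and -1.69, and 12 of 18 against 11 of 40 members were under the limit in all cultures. A further 52 of the 111 lower calls belong to no list.

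Among 11 probes for the Myc-driven miR-17~92 cluster and its relatives, 6 were called lower and 0 higher (median log2 fold change -1.26). Deposited miR-19a, the main oncogenic member of the cluster in lymphoma models, was -2, -5, -9 and -7 in the cultures and 141 to 651 in the tumor areas (median 314.5). For miR-19b, of the same seed, the values were 11, -9, -5 and -4 against 71 to 265 (median 197.5). No culture was above the limit for either, and every tumor area was. They were at least 9.96-fold (adjusted p = 5.83e-14) and at least 5.42-fold lower (adjusted p = 1.02e-08) in the cultures. The joint probe for miR-20a and miR-20b was measured on both sides, at 574, 25, 63 and 45 against 891 to 3252 (median 1627.5). Its log2 fold change was -3.41 (standard error 0.51, adjusted p = 3.20e-05), moving to -4.49 without monolayer replicate 1 and to -2.33 without monolayer replicate 2. For miR-19b these values were -7.49 and -5.35, beside -6.42 in full. The joint probe for miR-106a and miR-17 had 522, 65, 92 and 83 against 498 to 1858, so that monolayer replicate 1 lay within the tumor range (log2 fold change -2.16, standard error 0.36, adjusted p = 1.11e-04). Values of miR-18a, miR-18b, miR-363 and miR-92a were under the limit in all 16 samples.

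The related cluster of miR-106b, miR-93 and miR-25, in an intron of Mcm7 on chromosome 5, did not move as a unit. Deposited miR-106b was 21, -3, 2 and -4 in the cultures and 88 to 275 in the tumor areas (median 164), at least 5.02-fold lower (adjusted p = 1.07e-06), with a fitted log2 fold change of -5.54 that was -6.83 without monolayer replicate 1 and -4.24 without monolayer replicate 2. Values of miR-93 were 149, 37, 61 and 65 against 159 to 556 (log2 fold change -1.26, standard error 0.30, adjusted p = 0.00286), called lower in 7 of the 10 scalings and higher in 1, over a range from -2.16 to 0.64. For miR-25 they were 1004, 259, 741 and 566 against 768 to 2859, with overlap, and miR-25 was not called (log2 fold change -0.41, adjusted p = 0.344). A ratio within a lane needs no scaling. The value of miR-106b was 7.32% to 18.0% of that of miR-25 in the tumor areas, and at most 2.13%, 6.53%, 2.63% and 1.96% in the cultures. No culture reached the tumor range, which shows unequal change and not that miR-25 stayed constant.

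In the miR-15/16 family, whose members share a seed and repress Bcl2 and cyclins, 4 of 7 were called lower and 0 higher (median log2 fold change -2.18). Deposited miR-16 was 606, 42, 41 and 39 in the cultures and 1321 to 3341 in the tumor areas (median 2213.5). All cultures were above the limit and below every tumor area, with monolayer replicate 1 far above the other cultures. The log2 fold change was -3.89 (standard error 0.41, adjusted p = 4.13e-07), or -4.81 without monolayer replicate 1 and -2.98 without monolayer replicate 2. Values of miR-15a were 340, 15, 22 and 15 against 340 to 761 (median 527.5), so that monolayer replicate 1 equalled the lowest tumor area (log2 fold change -2.95, standard error 0.48, adjusted p = 8.15e-05). For miR-15b, by contrast, the cultures had 3152, 1190, 700 and 563 and the tumor areas 870 to 2519 (median 1788.5). The groups overlapped and monolayer replicate 1 was above every tumor area (log2 fold change 0.22, standard error 0.22), and miR-15b was not called. The value of 0.22 averages formats that differ, since miR-15b was lower in spheres than in the monolayer (log2 difference -1.41, adjusted p = 0.0246). Under the scalings its log2 fold change ran from -0.69 to 2.13, and it was called higher in 3. The other lower calls were miR-322 and miR-497, and miR-195 passed the adjusted p (4.01e-04) but was above the limit in only 4 of 12 tumor areas.

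The mature miR-16 comes from 2 loci, which the probe cannot tell apart. One lies 117 bases from miR-15a on chromosome 14 and the other 121 bases from miR-15b on chromosome 3, in an intron of Smc4. Within each lane, the value of miR-16 was 73.3% to 165.0% of that of miR-15b in the tumor areas (median 145.0%). In the cultures it was 19.2%, 3.53%, 5.86% and 6.93%. All 4 cultures lay below all 12 tumor areas on this ratio, which involves no scaling. For miR-15a over miR-15b the tumor areas had 22.9% to 45.5%, and the cultures 10.8%, at most 1.42%, 3.14% and 2.66%. These ratios, and those of the other pairs given within a lane, were chosen after the values were seen. The share of G and C is lower in miR-106b (42.9%) than in miR-25, and lower in miR-29b (34.8%) than in miR-29a (40.9%), so the member that fell more has less in these pairs, whereas miR-16 (45.5%) has more than miR-15b (40.9%). Among 38 pairs of neighbours with unequal content, the member with more G and C had the higher log2 fold change in 22. Over 126 miRNAs with a sequence the correlation of content with log2 fold change was 0.29, and 34 of the 42 with the least G and C were called lower against 19 of the 42 with the most. These miRNAs were picked by their tumor level, the higher side of most of them, and share lanes and families. The part of base content in the results was not tested. How well probes of a family separate close sequences was not tested.

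The miR-29 family, which represses collagens and other matrix genes, had 2 of 3 members called lower and 0 higher (median log2 fold change -1.86). All 3 were above the limit in every tumor area. Among all probes above it in at least 6 tumor areas, 55.2% were called lower. Deposited miR-29b was 19, 0, 8 and 6 in the cultures and 243 to 775 in the tumor areas (median 462.5), under the limit in every culture and at least 13.3-fold lower (adjusted p = 2.98e-07). Its fitted log2 fold change of -5.56 was -6.82 without monolayer replicate 1 and -4.29 without monolayer replicate 2. Values of miR-29a, 330 bases from 1 of the 2 loci of miR-29b on chromosome 6, were 1056, 161, 966 and 809 against 780 to 2217 (log2 fold change -0.35, adjusted p = 0.5). In the tumor areas miR-29b had 22.0% to 36.8% of the value of miR-29a, and in the cultures at most 2.03%, 10.5%, 2.02% and 1.37%. The remaining member, miR-29c, was 22, 16, 15 and 8 against 45 to 162 without overlap (log2 fold change -1.86, standard error 0.28, adjusted p = 3.20e-05), above the limit in 1 culture. Scaling by the 100 most abundant miRNAs brought its log2 fold change to 0.01, and the family's median likewise.

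**Figure D4:**
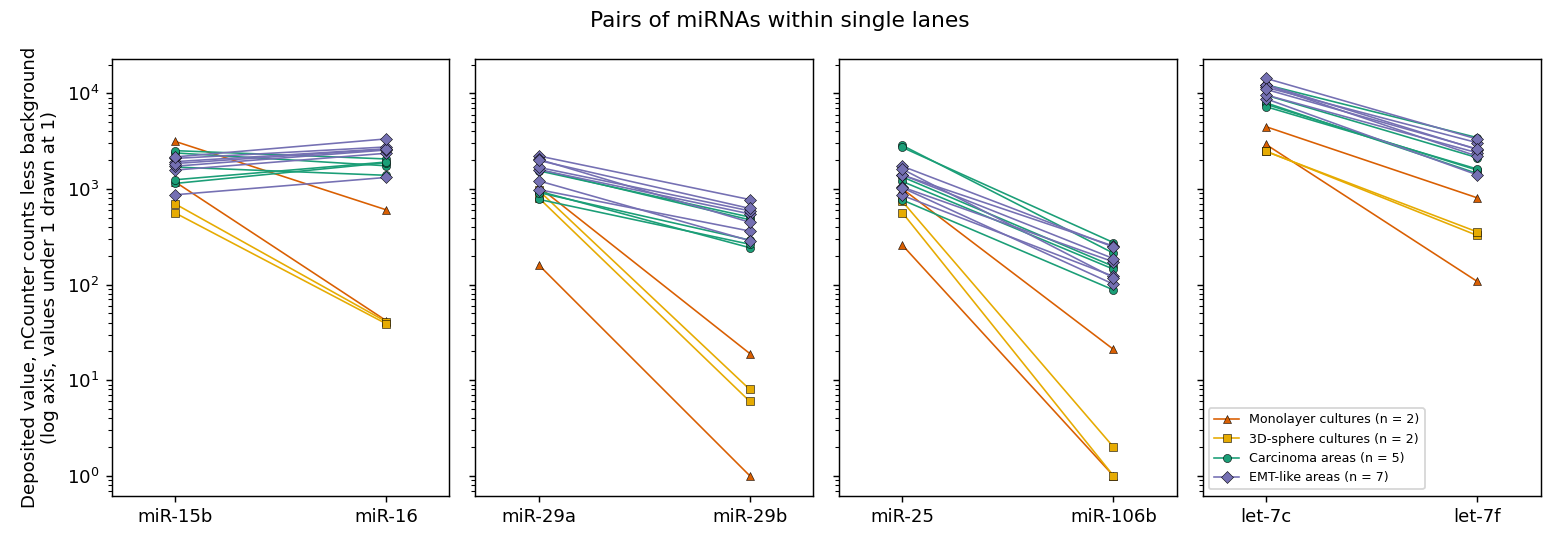
Deposited values of 4 pairs of miRNAs in each culture and each primary tumor area, on a log axis with values under 1 drawn at 1, with a line for each lane. From miR-29a to miR-29b and from miR-25 to miR-106b the lines of the cultures fall more steeply than those of the tumor areas, from miR-15b to miR-16 they fall while most lines of tumor areas rise (median ratio 145.0%), and from let-7c to let-7f the line of monolayer replicate 2 falls most.

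Sequences of these families are given because members with the same seed differed in how they moved. Those of miR-15b, miR-15a and miR-16 share bases 2 to 8, as do those of the miR-29 family and those of miR-19a and miR-19b. The differences lie in the bases after the seed.
miR-15b: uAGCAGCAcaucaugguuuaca
miR-15a: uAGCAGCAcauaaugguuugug
miR-16: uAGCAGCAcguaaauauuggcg
miR-29a: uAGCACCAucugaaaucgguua
miR-29b: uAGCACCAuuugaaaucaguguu
miR-29c: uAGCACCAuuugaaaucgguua
miR-19a: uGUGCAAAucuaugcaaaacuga
miR-19b: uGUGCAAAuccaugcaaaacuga

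The let-7 family, which represses Ras, Hmga2 and Lin28 targets in differentiated cells, was detected in every sample. With TMM, 8 of 9 members were called lower and 0 higher (median log2 fold change -1.21), let-7e being the exception. Deposited let-7c was 4484, 2924, 2490 and 2470 in the cultures and 7260 to 14360 in the tumor areas (median 10325). For let-7f the cultures had 809, 108, 327 and 356, and the tumor areas 1406 to 3447 (median 2297.5). Neither overlapped. The log2 fold change was -0.93 for let-7c (standard error 0.20, adjusted p = 0.00149) and -1.98 for let-7f (standard error 0.35, adjusted p = 1.93e-04). The direction of the family turned with the scaling: its median was -2.12 for unscaled values, -0.05 with the sum and 0.69 with the 100 most abundant miRNAs, where 7 members were called higher, the most of any scaling. As a share of the lane's summed mouse values the family held 34.9%, 34.1%, 24.8% and 26.1% in the cultures and 22.9% to 30.4% in the tumor areas (median 26.3%). By this share the sphere cultures lay inside the tumor range and both monolayers above it. The sum includes miR-720, a probe for a tRNA fragment, which alone took 19.1% to 29.4% of it in tumor areas. In the cultures miR-720 took 2.29% to 8.5%, so the place of the cultures depends on its inclusion. Within lanes, let-7f had 18.0%, 3.69%, 13.1% and 14.4% of the value of let-7c in the cultures and 16.0% to 28.0% in the tumor areas. The 3 sequences below share the seed.
let-7b: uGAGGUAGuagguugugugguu
let-7c: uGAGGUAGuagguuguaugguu
let-7f: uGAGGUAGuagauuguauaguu

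All 5 members of the miR-30 family, known from epithelial differentiation and from repression of Snai1, were called lower (median log2 fold change -1.97). The log2 fold change of miR-30a was -1.56 (adjusted p = 8.15e-05), with a range of -2.45 to 0.33 over the scalings. Values of miR-30e were 0, 2, 2 and -5 in the cultures against 19 to 52, under the limit in each culture, and supported no bound. The family's median was -0.07 when scaled to the 100 most abundant miRNAs, and -2.86 against -1.41 with the monolayer or the spheres alone, a difference between formats that was not tested for the family as a whole. Of its members miR-30c (2.36, adjusted p = 0.0295) and miR-30d (1.45, adjusted p = 0.0292) were higher in spheres than in the monolayer, and miR-30a, miR-30b and miR-30e did not pass.

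All 5 members of miR-23/24/27, made from 2 clusters that are active in endothelium and many other cells, were called lower as well (median log2 fold change -2.01). Deposited miR-23b was 227, 53, 85 and 90 in the cultures and 587 to 1440 in the tumor areas (median 1057), without overlap, and fell by 2.49 (standard error 0.28, adjusted p = 1.07e-06). For miR-24 the values were 101, 11, 19 and 22 against 203 to 505, with 2 of 4 cultures above the limit, and its log2 fold change was -2.77 (standard error 0.36, adjusted p = 6.54e-06), or -3.51 without monolayer replicate 1 and -2.03 without monolayer replicate 2. The median of this list was -0.10 with the 100 most abundant miRNAs. A like pattern outside the lists was that of miR-26b, at 41, 4, 21 and 9 against 78 to 227, which fell by 2.26 (standard error 0.40, adjusted p = 2.00e-04) and whose log2 fold change was -3.02 without monolayer replicate 1 and -1.50 without monolayer replicate 2. With scaling by the 100 most abundant miRNAs its call was lost (log2 fold change -0.41).

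Of 5 oncogenic or metastasis-linked miRNAs, 1 was called lower, 1 higher (miR-155, above) and 3 neither (median log2 fold change -0.39). The lower one was miR-21, which represses Pdcd4 and is abundant in most carcinomas and in activated fibroblasts. Its deposited value was 215, 5, 128 and 118 in the cultures and 1898 to 5963 in the tumor areas (median 4136.5). Monolayer replicate 2 was under its limit, and the highest culture was far below the lowest tumor area. The log2 fold change was -4.88 (standard error 0.59, adjusted p = 2.41e-06), or -6.16 without monolayer replicate 1 and -3.60 without monolayer replicate 2, and miR-21 was called lower in all 10 scalings. As a share of the summed mouse values miR-21 held 0.462%, 0.0189%, 0.331% and 0.353% in the cultures and 1.33% to 4.22% in the tumor areas. For miR-31, miR-9 and miR-10b the log2 fold changes were 0.50, -0.39 and -1.43 (adjusted p = 0.2, 0.562 and 0.144). The list's median turned to 0.77, 1.51 and 0.62 with the sum, the 100 most abundant miRNAs and the 56 probes, and to 0.06 without monolayer replicate 2.
miR-21: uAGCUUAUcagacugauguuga

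The hypoxia miRNA miR-210, a target of HIF, was 23, 25, 22 and 14 in the cultures and 79 to 255 in the tumor areas (median 147.5). All samples were above the limit and the groups did not overlap (1 of 1 called lower, log2 fold change -1.97, standard error 0.19, adjusted p = 1.29e-07). Its call was lost in 1 of the 10 scalings, where the log2 fold change was -0.09. Against lung metastasis, a comparison that shares the 4 cultures, the log2 fold change of miR-210 was -0.45 (adjusted p = 0.161), and whether the 2 values differ was not tested.

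Other lists had few calls. The pair miR-221 and miR-222, which represses the cell cycle inhibitor p27, had 0 of 2 called (median log2 fold change -0.73), and its median turned positive with the sum (0.23), the 100 most abundant miRNAs (0.87) and the 56 probes (0.12). It was -1.38 without monolayer replicate 1 and -0.08 without monolayer replicate 2. With the monolayer alone it was -2.09 and with the spheres alone 0.63, so the value over all cultures averages opposite signs, and miR-222 itself differed between the formats (4.95, adjusted p = 0.00565). Of 7 probes for miR-99/100 and miR-125, 1, miR-100, was called lower (log2 fold change -3.29, standard error 0.70, adjusted p = 0.00104) and 0 higher, with a median of -0.24 that turned to 0.93 with the sum, 1.67 with the 100 most abundant miRNAs, 0.77 with the 56 probes and 0.07 without monolayer replicate 2. Deposited miR-125a-5p was 4033, 1524, 1090 and 915 in the cultures and 1923 to 5064 in the tumor areas, with overlap (adjusted p = 0.573). This list held 16.8%, 10.6%, 12.1% and 12.2% of the summed values in the cultures and 5.41% to 10.3% in the tumor areas. Each culture thus lay above each tumor area in share, though not in scaled level. This share too is of a sum in which miR-720 weighs more in tumor areas.

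Adipose-linked miRNAs had 1 of 4 called lower, miR-193b (at least 2.36-fold, adjusted p = 4.10e-07), and 0 higher (median log2 fold change -0.35, turning to 0.23, 0.61 and 0.16 with the sum, the 100 most abundant miRNAs and the 56 probes). Their median was -0.67 without monolayer replicate 1 and -0.14 without monolayer replicate 2. Of 6 skeletal muscle miRNAs 1 was called higher and 0 lower (median log2 fold change 0.48). It was miR-206, a myogenic miRNA that is close to miR-1 in sequence, at 47, 45, 52 and 32 in the cultures and 8 to 61 in the tumor areas. Scaled values did not overlap (log2 fold change 1.81, standard error 0.61, adjusted p = 0.0292), but deposited ones did, and the call was lost without any 1 of the 4 cultures. The defining muscle members miR-1 and miR-133a were under the limit in all cultures.

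In the embryonic stem cell list (miR-290 and miR-302 clusters) 11 of 14 members were under the limit in all 16 samples, 1 was called higher, miR-290-5p, and 0 lower (median log2 fold change 0.00). The imprinted Dlk1-Dio3 cluster had 4 of 55 called lower (miR-127, miR-154, miR-329 and miR-377) and 2 higher (miR-323-3p and miR-543), with a median of -0.14 and 24 members under the limit in all 16 samples. Its most abundant member in the cultures was miR-543, whose probe takes 0.9% of the positive control, 71.6 to 84 of its 73 to 105 counts there. The call of miR-543 was lost once that share was subtracted, and its log2 fold change ran from -0.17 to 2.63 over the scalings. Of 6 miRNAs of tissues that should be absent (liver, brain and heart), 0 were called and 4 were under the limit in all 16 samples (median log2 fold change -0.13, at most 0.05 over the scalings and 0.68 without monolayer replicate 2).

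The 13 probes for fragments of tRNA and other RNAs, once listed as miRNAs, had 2 called lower, miR-720 and miR-2137, and 2 higher, miR-2145 and miR-2146 (median log2 fold change 0.66). Deposited miR-720, a tRNA fragment, was 1063, 2199, 3271 and 2840 in the cultures and 24961 to 46897 in the tumor areas (median 32523). It took 19.1% to 29.4% of the summed mouse values of a tumor area and 2.29%, 8.32%, 8.45% and 8.5% of those of the cultures. It fell by 3.14 on the log2 scale (standard error 0.30, adjusted p = 1.21e-07), in all 10 scalings. The lower call of miR-2137 rests on the monolayers, since its deposited values were -5, 5, 173 and 135 against 46 to 247, with both sphere cultures inside the tumor range, and it held in 6 of the 10 scalings. Values of miR-2146 were 33, 26, 349 and 334 against 20 to 93, so the sphere cultures were above every tumor area and the monolayers were not (log2 fold change 2.16, standard error 0.32, adjusted p = 3.19e-05). The probe miR-2145 was 12, 46, 9 and 17 against -4 to 12, with overlap, and was above the limit in 2 cultures. It was called higher (fitted log2 fold change 2.77, adjusted p = 0.00579), a call lost without monolayer replicate 2 or sphere replicate 2. Its computed bound was 2.21-fold with TMM, 1.25 with no scaling and 8.11 with the 100 most abundant miRNAs. Since that bound uses a mean over cultures partly under the limit, it is not a firm one. Medians of the list were -0.83 with the monolayer alone and 2.29 with the spheres alone, and the sign also turned for unscaled values (-0.23) and without monolayer replicate 2 (-0.09).

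MiRNAs called higher were mostly dim. Of the 25, 11 had no culture value above 34, the highest value of a viral probe in these lanes, and 6 had one above 100 (miR-34c, miR-155, miR-543, miR-804, miR-1224 and miR-2146). Of these, miR-34c has a probe that takes 12.4% of the positive control by its name, which is 985.8 to 1156.7 counts beside deposited values of 937, 828, 1001 and 1024. Subtracting the stated shares, a setting chosen after seeing the data, left 23 higher calls, without miR-34c and miR-543. The 6 that were measured on both sides without overlap were miR-670, miR-34b-3p, miR-206, miR-708, miR-202-5p and miR-155. Deposited miR-670 was 35, 42, 28 and 17 in the cultures and 6 to 20 in the tumor areas (log2 fold change 1.96, standard error 0.54, adjusted p = 0.00926). For miR-34b-3p, of a p53 target cluster, the values were 33, 26, 30 and 23 against -1 to 33 (log2 fold change 1.86, standard error 0.53, adjusted p = 0.011). The deposited ranges of both overlap. The calls of miR-708 (log2 fold change 1.70) and miR-202-5p (1.15), each with adjusted p = 0.0373, were lost without any 1 of the 4 cultures. With no scaling the log2 fold changes of the first 5 of the 6 shrank to between 0.27 and 1.08, and these 5 were not called. Leaving out 1 culture changed the count of 25 higher calls to 22 (monolayer replicate 1), 13 (monolayer replicate 2), 15 (sphere replicate 1) or 12 (sphere replicate 2).

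Some of the largest values were those of the spheres. Between sphere and monolayer cultures 27 of 550 probes had an adjusted p under 0.05 (4.91%). Among miRNAs singled out after their values were seen, miR-1224, which is spliced out as an intron rather than cut by Drosha, was 27, 977, 3317 and 2702 in the cultures and 168 to 823 in the tumor areas. Monolayer replicate 1 was below the tumor areas and the other 3 cultures above them (log2 fold change against the tumors 2.06, standard error 0.64, adjusted p = 0.0185). Values of miR-804 were 17, 57, 552 and 512 against 24 to 73 (log2 fold change 2.65, standard error 0.40, adjusted p = 3.20e-05), and those of miR-187 were 9, 9, 53 and 68 against -10 to 16 (log2 fold change 3.00, standard error 0.66, adjusted p = 0.00149). In each of these only spheres, or spheres and monolayer replicate 2, exceeded the tumors. The spheres minus monolayer log2 difference was 4.40 for miR-1224 (adjusted p = 0.0208) and 4.28 for miR-804 (adjusted p = 5.28e-04), and that of miR-187, 2.88, did not pass (adjusted p = 0.197). Larger differences between the formats, led by miR-2132 (7.33) and miR-2137 (6.62), did not come with a higher call against the tumors. Among lower miRNAs outside the lists, also singled out after the fact, miR-148a, abundant in mammary epithelium and milk, was 58, -12, -9 and -10 against 584 to 4128 (median 1789.5). It was above the limit only in monolayer replicate 1, and its call held in all 10 scalings (adjusted p = 5.24e-08).
miR-1224: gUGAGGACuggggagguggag
miR-148a: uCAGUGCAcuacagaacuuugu

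Lung metastases of the same animals were also measured. Against these 4 samples 103 of 550 probes were called lower in the cultures (18.7%) and 15 higher (2.73%), the latter between 9 and 18 without 1 culture. Both comparisons use the same cultures, and each metastasis came from an animal or pool that also gave primary tumor areas, though the fit took it as a unit of its own. Values are therefore given side by side only. The log2 fold change of miR-21 was -4.88 against primary tumors and -3.89 against metastases (adjusted p = 2.36e-04). For miR-16 it was -3.89 and -3.68 (adjusted p = 6.72e-06), and for miR-126-3p, with every culture at background, the fitted values were -10.92 and -10.82 (adjusted p = 2.32e-14). For miR-31, a miRNA that restrains metastasis in some breast models, it was 0.50 and 2.11 (adjusted p = 4.65e-05). Summed scaled values of the fibroblast list were 207.4 to 1023.8 in metastases and 937.7 to 2709.5 in primary tumors, against 5.08 to 26.9 in the cultures.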

How the data were processed

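The 24 samples of the series were measured on the nCounter mouse miRNA assay. The deposited values, of a unit named other here, are counts minus the mean of 6 negative controls per lane, as the authors deposited them. Partek is named in the submitters' processing notes, and its role for these nCounter values is not given in the sources used here. Names joined in the file by a question mark were read as joint probes. Columns of other samples numbered 0.

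Values were floored at 0, multiplied by TMM factors (trims of 30% and 5%, all 24 lanes), and compared as log2(value + 1) with limma 3.58.1 with trend in R 4.3.3, since background-subtracted values are not counts. Areas of 1 animal were averaged. All groups (20 units) shared 1 fit, with Benjamini-Hochberg adjustment over the 550 mouse probes above 0 in any sample. Python 3.11.15 with numpy 2.4.6, pandas 2.3.3, scipy 1.17.1 and matplotlib 3.10.9 did the rest. The procedure was run on simulated lanes with known changes drawn evenly from both directions. With TMM the calls here were mostly lower, so that run does not check the scaling for these data.

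Named miRNAs were members of the 24 lists and, in each direction, the 8 called with the largest log2 fold change measured on both sides without overlap, and the 8 with the largest lower bound. The members and lists were chosen with earlier results of these data known.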

Additional observations from a re-analysis of the deposited data

Results flagged for a closer look

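Of 76 groups of samples, 8 held a sample far from the others, on the scale of log2(scaled value + 1), and chance alone marks about 1 in 20 groups. Each number in brackets is the flagged sample's own level on that scale, not its distance from the others. Monolayer replicate 1 lay far above the other 3 cultures for miR-16 (10.01), miR-146a (6.68) and miR-19b (4.30, a value under its detection limit). Monolayer replicate 2 lay far below the others for miR-21 (3.39), for the summed adipose-linked list (6.47) and for the summed miR-29 family (8.40). Sphere replicate 2 lay below the others for the summed embryonic stem cell list (5.47). Among the 8 tumor animals, GB71 lay apart for miR-670 (2.95). The cause of these values was not tested.

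Probes for viral miRNAs were not part of the comparison. Of these, 2 were above the limit in 2 of the 4 cultures. The highest culture value was 33 for mcmv-miR-m107-1-5p and 23 for mcmv-miR-m88-1, both in monolayer replicate 2. The highest viral value was 34 in the cultures and 29 in the tumor areas.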

How the results depend on the processing

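Of 41 alternative settings, 39 kept the count of lower calls within 1.5 times of 111, and 30 that of higher calls within 1.5 times of 25. Higher calls numbered 3 with no scaling, 12 with the mRNA probes, 60 with the sum, 86 with the 100 most abundant miRNAs, 55 with TMM over the probes above the limit in all lanes (chosen after seeing the data), 41 with a pseudocount of 50 and 15 with the monolayer alone. Lower calls numbered 68 with the sum and 50 with the 100 most abundant miRNAs, and calls lower than in lung metastasis 50 with the latter. With the replicate number as a block, 10 were higher and 105 lower, but no source links same-numbered samples (correlation of deviations -0.41 to 0.27, 10 pairs), so this pairing is of numbers only. Without 1 sample, higher calls ran from 12 to 27, lower calls from 102 to 113, and lower calls against lung metastasis from 94 to 105. A culture format left with 1 sample is then assumed to vary like the other groups. The 23 miRNAs named by size of change kept their direction, list members such as miR-93, miR-145 and let-7c did not under every scaling, and 892 of 1025 list medians moved by no more than the within-group SD of the list. Every planned setting was run. The causes of these shifts were not tested. Values near the detection limit carry little precision, which limits most higher calls.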
